A study of Mus musculus with 3 samples.

Results

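Progress from G1 into S phase is set by the D-type cyclins, their kinases CDK4 and CDK6, and the inhibitors that bind these complexes, and the 10 genes described here encode its core in the mouse. They are the D cyclins Ccnd1, Ccnd2 and Ccnd3, the kinases Cdk4 and Cdk6, the CIP/KIP inhibitors Cdkn1b and Cdkn1c, and the INK4 inhibitors Cdkn2a, Cdkn2b and Cdkn2c. The genes were taken by symbol, and all 10 were found among the 31744 gene symbols of each of 3 single-cell RNA-seq libraries. Mouse embryonic fibroblasts carrying the Hb9::GFP reporter, a fluorescent protein under control of motor neuron regulatory sequence, were being converted directly to induced motor neurons. All groups had received LNI (Lhx3, Neurog2 and Isl1 in a single cassette) and DDRR, which couples HRAS(G12V), an activated Ras allele, to p53DD, a fragment that blocks p53. The first group was sorted as Hb9::GFP+ at 14 dpi from a culture given the supplements RepSox, a small molecule that blocks a TGF-beta receptor kinase, and FGF, GDNF, CNTF and BDNF, which are growth factors. The second was sorted in the same way at 14 dpi from a culture without supplements. The third was sorted at 4 dpi, with supplements, for low CellTrace-FarRed, a dye that is diluted at each division, so this library was chosen for cells that had divided often. These are called supplemented, unsupplemented and 4 dpi cells. Each group is 1 library, and the batch date is shared by all. No difference has a replicate check, no test between groups can be made, and the intervals given cover counting error only.

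In the textbook scheme, mitogen signals raise the D cyclins, which bind CDK4 or CDK6 and phosphorylate the retinoblastoma protein, releasing E2F factors that switch on genes of DNA synthesis. INK4 proteins bind CDK4 and CDK6 directly and keep the cyclin away, whereas CIP/KIP proteins act on complexes that already hold a cyclin. Neuronal differentiation goes with exit from the cell cycle, and CIP/KIP proteins are known to take part in that exit. Activated Ras is known to raise both D cyclins and Cdkn2a in fibroblasts.

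The kept cells numbered 2314 supplemented, 3716 unsupplemented and 4492 at 4 dpi, with a median of 14380.5, 10664 and 2312.5 unique molecular identifiers (UMIs) a cell. Levels are CPM, UMIs per 1000000 UMIs of the cells summed, with exact Poisson 95% intervals. A cell was placed in a class when exactly 1 of the class genes Mki67 (dividing cells), Stmn2 (neurons) and Col1a1 (fibroblasts) reached 100 CPM in it. At the median depth of the 4 dpi library 1 UMI reaches that level, and at the 14 dpi medians it does not. In the same order of libraries, the Mki67 cells numbered 104, 127 and 577, the Stmn2 cells 1116, 745 and 31, and the Col1a1 cells 129, 1016 and 1499. The 4 dpi Stmn2 cells held only 76163 UMIs, and every value that rests on them is imprecise. Cells with none of the class genes, 868, 1559 and 2038, and cells with several, 97, 269 and 347, belong to no class. They enter the sums over all kept cells. Cells with Mki67 at 100 CPM or more numbered 159, 303 and 916. Of these, 31, 167 and 334 also had Col1a1 at that level, so they lie outside the Mki67 class. What is said of dividing cells below covers the Mki67 class only. The classes carried other markers of their kind, given here without the class genes themselves. The 8 other markers of dividing cells summed to 3343, 3792 and 2597 CPM in Mki67 cells of the libraries in that order, against 36.0 to 276 CPM in Stmn2 cells and 129 to 557 CPM in Col1a1 cells. The 10 other neuron markers summed to 8618, 7975 and 5042 CPM in Stmn2 cells, and the 9 other fibroblast markers to 13059, 7164 and 11608 CPM in Col1a1 cells. The Mki67 cells also held 4171, 2186 and 1217 CPM of the neuron list and 2664, 1803 and 2616 CPM of the fibroblast list. Nefl alone made up 2403, 1026 and 568 CPM of that neuron list. The Col1a1 cells held 2387, 1996 and 1166 CPM of the neuron list, and the Stmn2 cells 902, 567 and 1681 CPM of the fibroblast list. The immune, endothelial, epithelial, glial, muscle and erythroid lists each summed to under 14 CPM in every class. The motor neuron list of 6 genes summed to 277, 269 and 512 CPM in Stmn2 cells of the libraries in that order. It gave 189, 138 and 330 CPM in Mki67 cells and 178, 164 and 202 CPM in Col1a1 cells. Lhx3 and Isl1 of this list are also factors of the cassette that all groups received. The highest gene of the list in Stmn2 cells was Isl1 with supplements (114 CPM) and Lhx3 without (92.6 CPM) and at 4 dpi (302 CPM). In Col1a1 cells it was Slc5a7 in every library. The part of the cassette in these sums was not tested. Within this list, the enzyme gene Chat was low, at 2.65 and 9.52 CPM in the 14 dpi Stmn2 cells with and without supplements. Chat had no UMI in the 4 dpi Stmn2 cells. Col3a1, a fibroblast gene not used to set the classes, stood at 28.9 CPM in Stmn2 cells and 3271 CPM in Col1a1 cells with supplements, and at 19.8 and 1645 CPM without them.

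Over all kept cells, the 14 dpi libraries differed little in these genes, and the 4 dpi library stood apart. A gene was counted as higher or lower at 2-fold or more, among symbols at 10 CPM or more in either sum and 20 UMIs or more over both, and all 10 genes passed that minimum in all 21 comparisons made. With supplements against no supplements at 14 dpi, 0 of 10 genes passed 2-fold, where 9.97% of all tested symbols did. With supplements at 14 dpi against 4 dpi, 3 of 10 passed it, Cdkn1b higher and Cdk6 and Ccnd3 lower, where 25.5% of symbols passed. Unsupplemented cells against 4 dpi also gave 3 of 10, Cdkn1b higher and Cdk6 and Cdk4 lower, with 25.3% of symbols past the threshold. These shares of the 10 genes are near or below the background. The median log2 ratio of the 10 genes was -0.45 and -0.61 in the comparisons with 4 dpi, with and without supplements, against 0.11 and 0.09 over all symbols tested. The comparisons with 4 dpi share that library, and stage, sorting gate, dissociation and depth differ together in them and cannot be told apart. In sums over all cells, a change in the mix of cells and a change in RNA per cell cannot be told apart either.

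**Figure D1:**
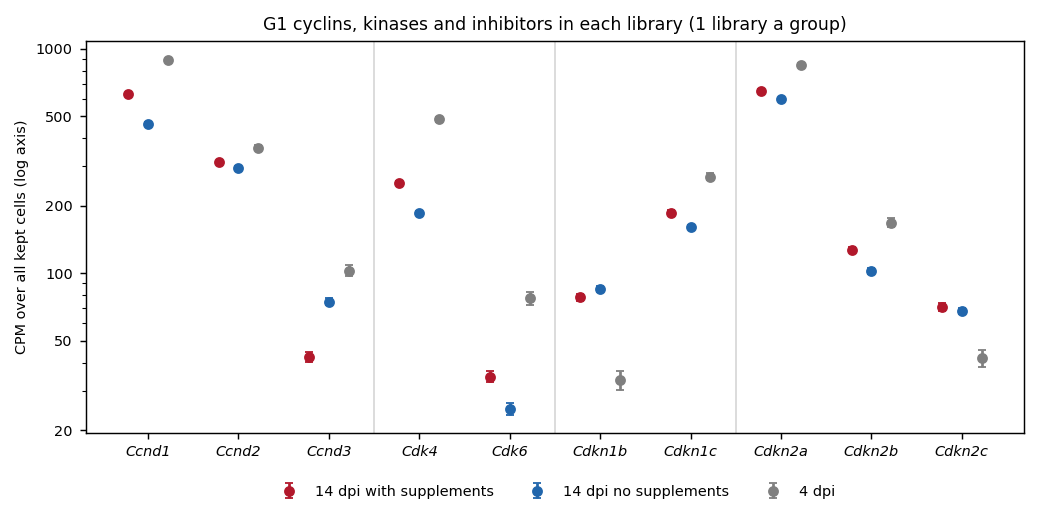
Level of each gene over all kept cells of each library, in CPM on a log axis, with exact Poisson 95% intervals; each point is 1 library. Cdkn1b and Cdkn2c lie above their 4 dpi level in both 14 dpi libraries, and the other 8 genes lie below it.

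Cdkn1b, the gene of p27, was the gene that rose past 2-fold at 14 dpi. It stood at 78.3 CPM in supplemented cells (interval 75.4 to 81.2), 85.2 CPM in unsupplemented cells (82.6 to 87.9) and 33.4 CPM at 4 dpi (30.2 to 36.8). The 14 dpi libraries lay close together and well above the 4 dpi library, by a log2 ratio of 1.23 with supplements and 1.35 without, with lower bounds of 1.08 and 1.21. Cdk6, the kinase partner used by many blood and progenitor cells, fell in both, with 34.6 CPM in supplemented cells, 24.8 CPM in unsupplemented cells and 77.4 CPM at 4 dpi. Its log2 ratios to 4 dpi were -1.16 and -1.64. Ccnd3 fell past 2-fold with supplements, at 42.4 CPM there, 74.7 CPM in unsupplemented cells and 103 CPM at 4 dpi, for log2 ratios to 4 dpi of -1.28 and -0.46. Cdk4 fell past 2-fold without supplements, at 254 CPM in supplemented cells, 186 CPM in unsupplemented cells and 485 CPM at 4 dpi, for log2 ratios of -0.94 and -1.38. Ccnd3 and Cdk4 were thus lower than at 4 dpi in both 14 dpi libraries, and each missed the threshold in one of them. The remaining genes did not pass it in any comparison of whole libraries. Ccnd1 stood at 628, 465 and 888 CPM, Ccnd2 at 312, 295 and 363 CPM, and Cdkn1c at 186, 161 and 270 CPM, each given for supplemented, unsupplemented and 4 dpi cells. Cdkn2a stood at 651, 597 and 846 CPM, Cdkn2b at 127, 102 and 168 CPM, and Cdkn2c at 70.5, 67.9 and 41.7 CPM in the same order.

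Between the cell classes of a library, the number of genes past 2-fold lay above the share of all symbols in some comparisons and near or below it in others, so the genes that passed are named and nothing is read from their number. Between Mki67 and Stmn2 cells of the supplemented library 5 of 10 genes passed 2-fold, where 25.7% of tested symbols did, with Cdk4, Cdkn1c and Cdkn2c higher and Ccnd2 and Cdkn2b lower in Mki67 cells. In the unsupplemented library 3 passed, where 30.7% of symbols did, with Ccnd1 and Cdk4 higher and Ccnd2 lower. At 4 dpi 3 passed, against 26.4% of symbols, with Ccnd1 and Cdkn1b higher and Cdkn1c lower. Between Mki67 and Col1a1 cells, 5 of 10 passed with supplements (18.9% of symbols), with Cdkn2c higher and Ccnd2, Ccnd3, Cdkn1c and Cdkn2b lower in Mki67 cells. None of the 10 passed without supplements (11.8%), and 3 did at 4 dpi (18%), where Ccnd2, Ccnd3 and Cdkn1c were lower. Between Stmn2 and Col1a1 cells, 2 passed with supplements (29.7%), Ccnd3 and Cdkn1c, both lower in Stmn2 cells. Without supplements 4 passed (29.1%), Ccnd2 higher and Ccnd1, Ccnd3 and Cdk4 lower, and at 4 dpi 6 passed (30.3%), Cdkn2c higher and Ccnd1, Ccnd3, Cdkn1b, Cdkn2a and Cdkn2b lower. The median log2 ratio of all tested symbols was between -0.18 and -0.08 for Mki67 over Stmn2 cells, between 0.06 and 0.13 for Mki67 over Col1a1 cells, and between 0.23 and 0.26 for Stmn2 over Col1a1 cells.

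**Figure D2:**
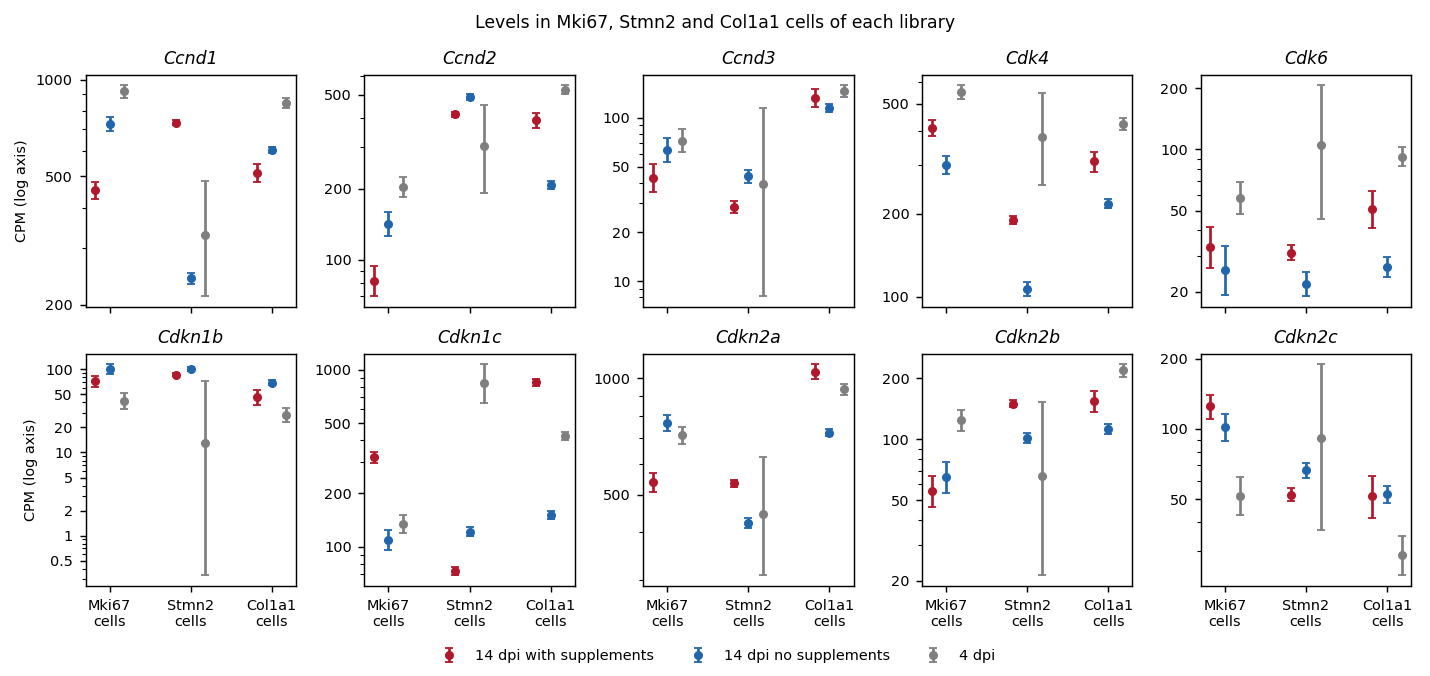
Level of each gene in Mki67, Stmn2 and Col1a1 cells of each library, in CPM on log axes that differ between genes, with exact Poisson 95% intervals; each point is 1 class of 1 library. Ccnd2 is lowest in Mki67 cells, Ccnd3 is highest in Col1a1 cells and Cdk4 is highest in Mki67 cells of every library, and the 31 Stmn2 cells of the 4 dpi library have wide intervals.

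Ccnd2, a D cyclin with a major part in the growth of neural progenitors, was lower in dividing cells than in neurons and fibroblasts of every library. With supplements it stood at 81.4 CPM in Mki67 cells, 413 CPM in Stmn2 cells and 391 CPM in Col1a1 cells. Without supplements these levels were 142, 490 and 207 CPM, and at 4 dpi 204, 302 and 525 CPM. The log2 ratio of Mki67 over Stmn2 cells was -2.34 (-2.56 to -2.14) with supplements, -1.79 (-1.96 to -1.62) without supplements and -0.57 (-1.17 to 0.10) at 4 dpi, so the last lay within counting error. Over Col1a1 cells it was -2.26, -0.55 and -1.37, of which the middle value, without supplements, missed 2-fold. Ccnd2 was also higher in Stmn2 than in Col1a1 cells without supplements, by 1.24 (1.17 to 1.31), which became 0.99 when centred on the median of all symbols. With supplements that ratio was 0.08.

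Ccnd1, the D cyclin most closely tied to mitogen and Ras signals, was the gene whose level in neurons differed most with supplements. The Stmn2 cells held 734 CPM in supplemented cells (722 to 746), 241 CPM in unsupplemented cells (232 to 251) and 328 CPM at 4 dpi (212 to 485, from 25 UMIs). The log2 ratio of supplements over no supplements in Stmn2 cells was 1.61 (1.54 to 1.67), and it lay between 1.29 and 1.67 under the 11 alternative settings tried. Ccnd1 was thus the only gene of the 10 past 2-fold there, where 11.6% of tested symbols were. The median Stmn2 cell had 456 CPM in supplemented cells and 128 CPM without. In the other classes the libraries stood the other way, with 453 CPM in supplemented cells against 727 CPM without in Mki67 cells, and 513 against 604 CPM in Col1a1 cells. These gave log2 ratios of -0.68 and -0.24, short of 2-fold. The order of dividing cells and neurons was therefore turned, since Ccnd1 in Mki67 over Stmn2 cells was -0.70 with supplements, 1.59 without supplements and 1.49 at 4 dpi. The Stmn2 cells themselves differed between the cultures. With and without supplements they held 1629 and 1074 CPM of Stmn2, 2649 and 1551 CPM of Gap43, 529 and 1053 CPM of Elavl4, and 1240 and 1889 CPM of Ina, all neuronal genes. Their fibroblast markers other than Col1a1 summed to 902 and 567 CPM and their median depth was 14926 and 11412 UMIs. The part of these differences in the Ccnd1 value was not tested.

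Along the level of Stmn2 itself, in 14 dpi cells without Mki67, Ccnd1 moved in opposite directions in the cultures. The bins were chosen with earlier results of these data known and are a description. With supplements Ccnd1 stood at 513 CPM in 857 cells with no Stmn2 UMI, 619 CPM under 200 CPM of Stmn2, 633 CPM between 200 and 1000 CPM, and 790 CPM in 705 cells at 1000 CPM or more. Without supplements it stood at 508 CPM in 2467 cells with no Stmn2 UMI and then at 320, 283 and 193 CPM, the last in 357 cells. The libraries thus had almost the same Ccnd1 level in cells without Stmn2 and drew apart as Stmn2 rose. Ccnd2 climbed along the bins in both, over 207, 291, 372 and 456 CPM in supplemented cells and 245, 357, 473 and 498 CPM without. Cdk4 declined in both, over 310, 287, 205 and 171 CPM in supplemented cells and 200, 158, 121 and 92.2 CPM without. Cdkn1c declined over 329, 186, 96.9 and 54.3 CPM in supplemented cells and 188, 175, 132 and 95.8 CPM without. Cdkn2a ended lower than it began, at 477 CPM against 821 CPM in supplemented cells and at 391 CPM against 645 CPM without.

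**Figure D3:**
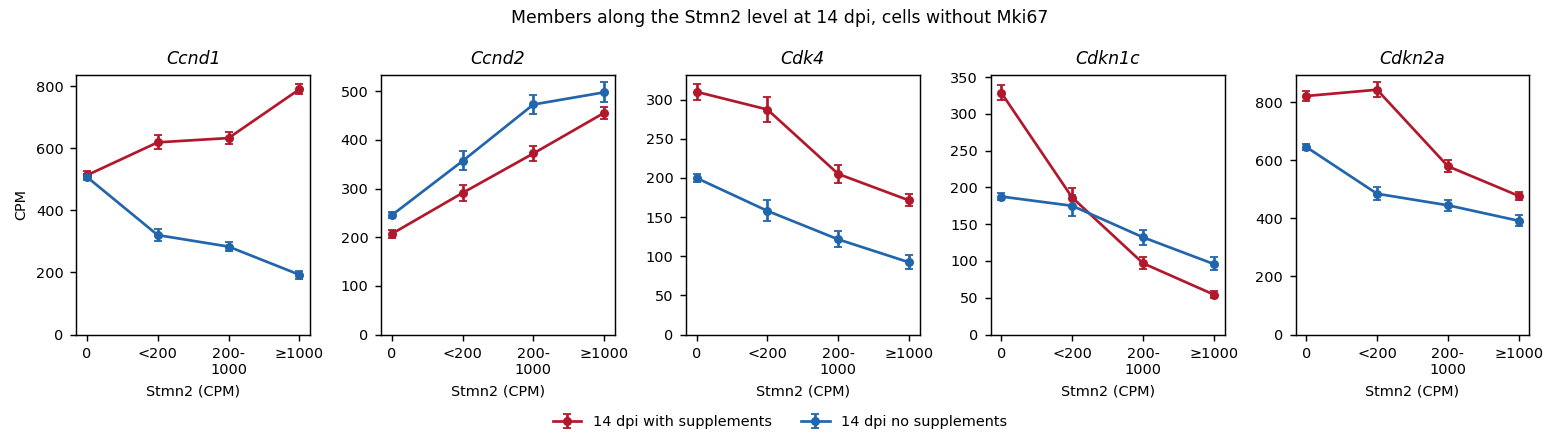
Level of 5 genes in CPM, on linear axes from 0, over 4 bins of Stmn2 level, with exact Poisson 95% intervals. The cells are 14 dpi cells with Mki67 under 100 CPM, and each point sums the cells of 1 bin of 1 library. Ccnd1 climbs to 790 CPM in supplemented cells and declines to 193 CPM without, whereas Ccnd2 climbs and Cdk4 and Cdkn1c decline in both libraries.

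The make-up of the D cyclins in summed UMIs differed little between libraries in the Mki67 class and more in the other classes. Of the UMIs of the 3 D cyclins, Ccnd1 held 78.4% (exact binomial interval 76.1 to 80.6) in Mki67 cells with supplements, 77.9% (76.0 to 79.8) without supplements and 76.9% (75.2 to 78.5) at 4 dpi. In Stmn2 cells it held 62.4% (61.8 to 63.1), 31.1% (30.1 to 32.2) and 49.0% (34.8 to 63.4) in that order of libraries, and in Col1a1 cells 49.5%, 65.2% and 55.8%. Cells with several class genes, which lie outside the classes, gave 61.8%, 69.1% and 69.5%. These are shares of summed UMIs, not of molecules of protein, and they do not describe single cells. Among Mki67 cells with supplements, 33.7% had no Ccnd1 UMI and 66.3% had no Ccnd2 UMI. Summed D cyclins stood at 577, 932 and 1196 CPM in Mki67 cells, 1176, 775 and 670 CPM in Stmn2 cells, and 1036, 926 and 1518 CPM in Col1a1 cells, each for supplemented, unsupplemented and 4 dpi cells. The Mki67 class was lowest of the 3 with supplements and highest, close to the Col1a1 class, without them.

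**Figure D4:**
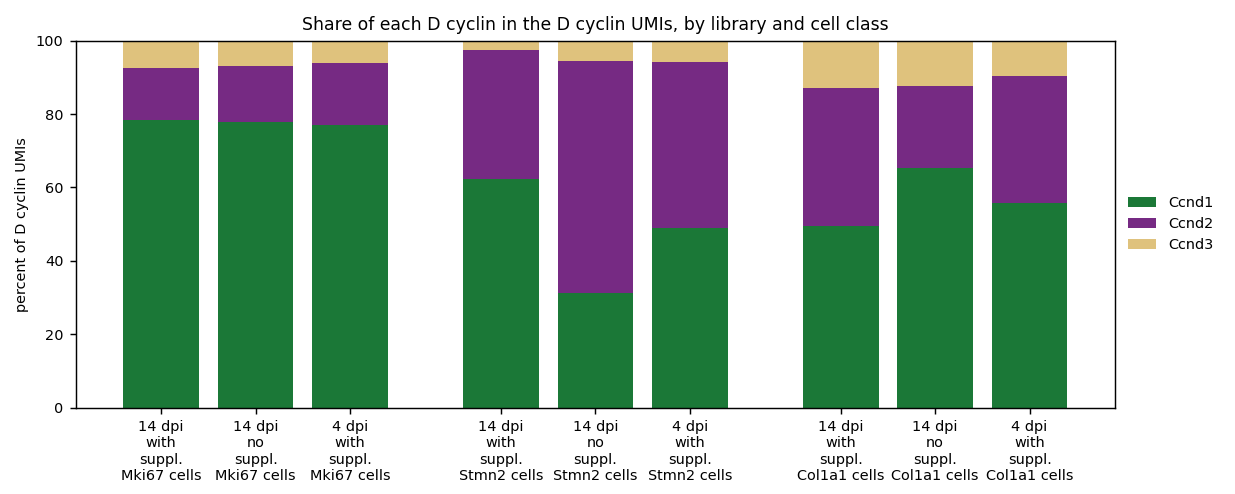
Percent of the UMIs of Ccnd1, Ccnd2 and Ccnd3 that came from each gene, by cell class and library; bars stack to 100. The Ccnd1 share is 76.9% to 78.4% in Mki67 cells of the 3 libraries and ranges from 31.1% to 62.4% in Stmn2 cells.

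Ccnd3, the D cyclin found in many differentiated tissues, was highest in fibroblasts. It stood at 43.1 CPM in Mki67 cells, 28.5 CPM in Stmn2 cells and 133 CPM in Col1a1 cells with supplements. Without supplements the levels were 63.6, 43.8 and 115 CPM, and at 4 dpi 72.4, 39.4 and 145 CPM, the Stmn2 value there from 3 UMIs. Stmn2 over Col1a1 cells gave a log2 ratio of -2.22 with supplements, -1.39 without supplements and -1.88 (-4.17 to -0.33) at 4 dpi. Mki67 over Col1a1 cells gave -1.62, -0.85 and -1.01, the last falling short of 2-fold in 3 of the alternative settings.

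Of the kinases, Cdk4, the main partner of D cyclins in fibroblasts, was higher in dividing cells, whereas Cdk6 differed from Stmn2 cells by no more than counting error. Cdk4 stood at 410 CPM in Mki67 cells, 189 CPM in Stmn2 cells and 309 CPM in Col1a1 cells with supplements. In the unsupplemented library they were 301, 107 and 217 CPM, and at 4 dpi 553, 381 and 422 CPM. Mki67 cells lay above both other classes in every library, by log2 ratios over Stmn2 cells of 1.12 (1.01 to 1.22), 1.49 (1.35 to 1.64) and 0.54 (0.01 to 1.12), and over Col1a1 cells of 0.41, 0.47 and 0.39. The first of these fell short of 2-fold, at 0.87, when a class needed 2 of its markers. Cdk6 stood at 33.1, 31.1 and 50.9 CPM in Mki67, Stmn2 and Col1a1 cells with supplements, 25.6, 21.8 and 26.4 CPM without, and 57.9, 105 and 92.1 CPM at 4 dpi. Its Mki67 over Stmn2 ratio was 0.09 (-0.28 to 0.44) with supplements, 0.23 (-0.23 to 0.67) without and -0.86 (-1.88 to 0.38) at 4 dpi, all within counting error. In each class Cdk4 and Cdk6 were lower in both 14 dpi libraries than at 4 dpi, from -0.43 to -1.83 for Cdk4 and from -0.81 to -2.27 for Cdk6. The far ends are Stmn2 cells, set against 29 Cdk4 and 8 Cdk6 UMIs at 4 dpi. In the other classes the values reached -0.95 and -1.80. With supplements, Cdk4 in Stmn2 cells was -1.01 and passed 2-fold in 6 of 11 alternative settings.

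Among the CIP/KIP inhibitors, Cdkn1b was higher at 14 dpi than at 4 dpi in Mki67 and Col1a1 cells. It stood at 72.2 CPM in Mki67 cells, 86.4 CPM in Stmn2 cells and 46.1 CPM in Col1a1 cells with supplements. The unsupplemented cells held 101, 101 and 68.8 CPM, and at 4 dpi 42.0, 13.1 and 28.6 CPM, where the Stmn2 value is 1 UMI. Against 4 dpi, Mki67 cells gave log2 ratios of 0.78 (0.40 to 1.17) with supplements and 1.26 (0.90 to 1.63) without, and Col1a1 cells 0.69 (0.26 to 1.12) and 1.27 (0.97 to 1.58). Stmn2 cells gave 2.72 (0.24 to 8.02) and 2.94 (0.46 to 8.24), against that single UMI, which is too few to give a direction. Mki67 cells did not lie below Stmn2 cells by 2-fold in any library, at -0.26 (-0.50 to -0.03) with supplements and in an interval of -0.22 to 0.21 without, and at 4 dpi, where the ratio was 1.68, the interval reached down to -0.84. They lay above Col1a1 cells by 0.65, 0.55 and 0.56, short of 2-fold.

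Cdkn1c, the imprinted gene of p57, had the widest range of the 10 over the classes and libraries. It stood at 321 CPM in Mki67 cells, 72.8 CPM in Stmn2 cells and 848 CPM in Col1a1 cells with supplements. Without supplements they were 109, 122 and 151 CPM, close together, and at 4 dpi 135, 840 and 423 CPM. With supplements over none, the log2 ratio was 2.49 (2.39 to 2.59) in Col1a1 cells, 1.56 (1.34 to 1.78) in Mki67 cells and -0.74 (-0.86 to -0.63) in Stmn2 cells. It was the only gene of the 10 past 2-fold in Col1a1 cells, where 12% of symbols were, and in Mki67 cells, where 14% were. The value in Col1a1 cells lay between 1.82 and 2.55 under the alternatives, and that in Mki67 cells was 0.88 when a single UMI of a class gene was enough. Cdkn1c was unevenly spread within a class. The 10% of cells with most of it held 64.5% of its UMIs in the Col1a1 cells with supplements and 65.5% in those without, and the median cell had 227 and 0 CPM. In Mki67 cells they held 67.1% with supplements and 67.0% without, and the median cell had 98.7 and 0 CPM, so these sums too rest on a minority of cells. In the 4 dpi Stmn2 cells 89.1% of its 64 UMIs came from such cells, so that value rests on a few cells. The fibroblast list without Col1a1 also differed in Col1a1 cells, at 13059 CPM in supplemented cells and 7164 CPM without, and its part in the Cdkn1c value was not tested.

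**Figure D5:**
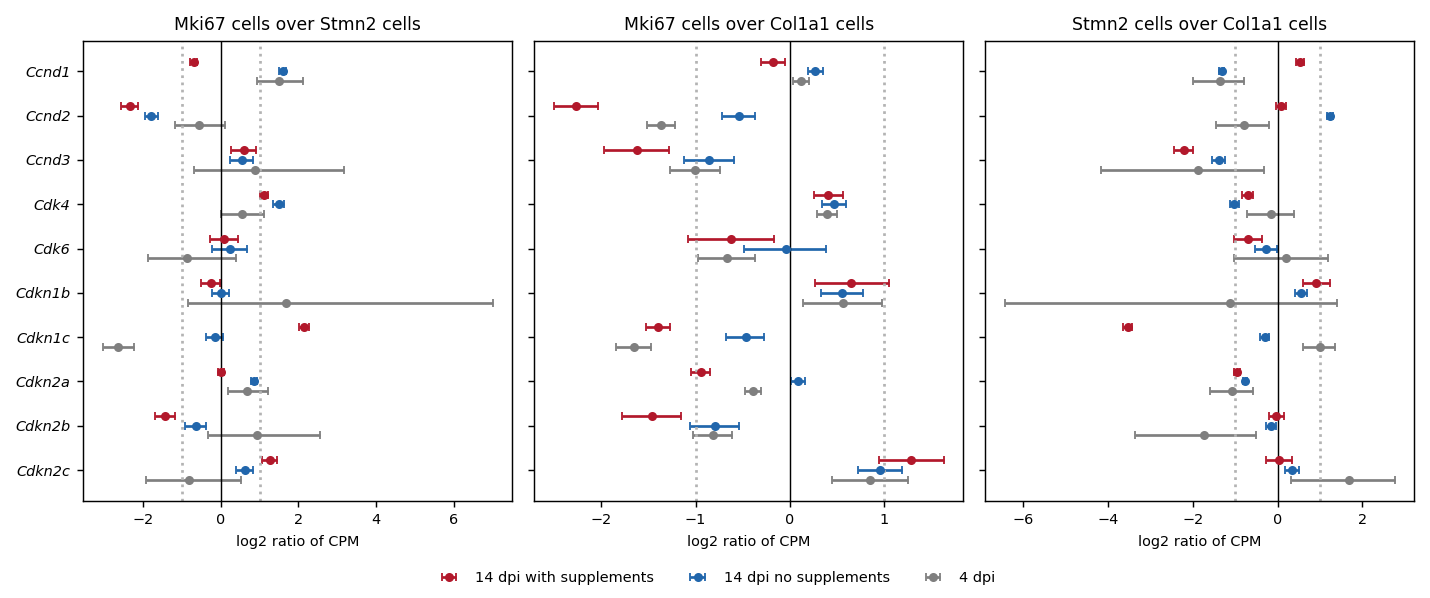
Log2 ratio of CPM between cell classes within each library, with exact binomial (Clopper-Pearson) 95% intervals; dotted lines mark 2-fold and each point is 1 library. Ccnd1 and Cdkn1c change sign between libraries in Mki67 over Stmn2 cells, whereas Ccnd2 lies left of 0 and Cdk4 right of 0 in the comparisons of Mki67 cells with both other classes.

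The INK4 gene Cdkn2a makes p16Ink4a and, from a separate upstream start, p19Arf, a protein that acts through p53. The reads were made from the 3′ end, which both transcripts share, so 1 count stands for both. The windows printed here, from 250 bases before to 50 after each start, show where the transcripts differ; they are RefSeq windows on GRCm38.p6, 5′ to 3′ on the minus strand, at chr4:89294570-89294869 (upstream start, p19Arf) and chr4:89282143-89282442 (downstream start, p16Ink4a). The letters in capitals mark a match to an E2F site, searched as TTTCGCGC, TTTGGCGC, TTTCCCGC and TTTGCCGC on both strands.
Cdkn2a upstream start: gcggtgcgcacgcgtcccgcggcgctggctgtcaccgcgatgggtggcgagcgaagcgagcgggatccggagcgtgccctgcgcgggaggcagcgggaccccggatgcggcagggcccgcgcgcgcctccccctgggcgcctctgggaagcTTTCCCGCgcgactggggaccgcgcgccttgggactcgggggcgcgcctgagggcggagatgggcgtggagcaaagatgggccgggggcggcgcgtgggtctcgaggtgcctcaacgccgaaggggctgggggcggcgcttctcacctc
Cdkn2a downstream start: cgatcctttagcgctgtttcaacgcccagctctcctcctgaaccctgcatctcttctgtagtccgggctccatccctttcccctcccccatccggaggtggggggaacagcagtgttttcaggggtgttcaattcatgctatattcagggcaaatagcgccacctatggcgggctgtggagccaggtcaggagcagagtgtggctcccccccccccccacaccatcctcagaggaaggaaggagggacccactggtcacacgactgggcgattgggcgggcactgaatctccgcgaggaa
The upstream window held 1 match, beginning at base 152 of the 300, and the downstream window held 0. Across the 10 windows found for 7 of the 10 genes this was the only match, and 2.26% of all 32851 mouse windows hold at least 1. A match describes the letters and is not evidence of a bound site. Windows were not found for Ccnd1, Ccnd2 and Cdkn1c.

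Cdkn2a was lower in Stmn2 cells than in Col1a1 cells of every library, and the place of Mki67 cells between them differed from library to library. It stood at 538 CPM in Mki67 cells, 535 CPM in Stmn2 cells and 1039 CPM in Col1a1 cells with supplements. In unsupplemented cells the levels were 767, 423 and 723 CPM, and at 4 dpi 713, 446 and 935 CPM. Stmn2 over Col1a1 cells gave log2 ratios of -0.96 (-1.03 to -0.89) with supplements, -0.77 (-0.83 to -0.72) without and -1.07 (-1.60 to -0.58) at 4 dpi, the last past 2-fold. Mki67 over Stmn2 cells gave 0.01 (-0.08 to 0.09), 0.86 (0.77 to 0.94) and 0.68 (0.19 to 1.21), and Mki67 over Col1a1 cells gave -0.95, 0.08 and -0.39. Of these, the -0.95 passed 2-fold in 4 of the 11 alternative settings and the 0.86 in 2. No comparison between libraries within a class reached 2-fold for this gene.

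Cdkn2b, the neighbour of Cdkn2a and the gene of p15, a known target of TGF-beta, was lower in dividing cells than in fibroblasts. With supplements it stood at 55.7 CPM in Mki67 cells, 150 CPM in Stmn2 cells and 154 CPM in Col1a1 cells. The unsupplemented library had 65.1, 102 and 113 CPM, and at 4 dpi 124, 65.6 and 219 CPM, the Stmn2 value there from 5 UMIs. Mki67 over Col1a1 cells gave -1.47 (-1.78 to -1.16), -0.79 (-1.06 to -0.54) and -0.82 (-1.02 to -0.62) in that order of libraries, so Mki67 cells were lower in all 3 and past 2-fold with supplements. When a class needed 2 of its markers, the first value was -0.95. Against 4 dpi, Mki67 cells gave -1.16 with supplements and -0.93 without. Cdkn2c, the gene of p18, which E2F factors are known to induce, ran the other way and was higher in dividing cells than in fibroblasts. It stood at 125 CPM in Mki67 cells, 52.3 CPM in Stmn2 cells and 51.5 CPM in Col1a1 cells with supplements. Without supplements the levels were 102, 66.5 and 52.4 CPM, and at 4 dpi 51.9, 91.9 and 28.9 CPM, the Stmn2 value there from 7 UMIs. Mki67 over Col1a1 cells gave 1.28 (0.94 to 1.63), 0.96 (0.72 to 1.18) and 0.85 (0.45 to 1.24), above 0 in all 3 libraries and past 2-fold with supplements. Within Mki67 cells Cdkn2c stood 1.27 (0.95 to 1.60) above 4 dpi with supplements and 0.97 (0.63 to 1.31) above it without.

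Counted together within a class, supplements over none gave 1 of the 10 genes past 2-fold in each class, Cdkn1c in Mki67 cells (14% of symbols past 2-fold) and Col1a1 cells (12%) and Ccnd1 in Stmn2 cells (11.6%). These counts are near or below the background and say nothing of the genes as a group. Against 4 dpi, supplemented cells passed it in 5 of 10 genes among Mki67 cells (16.3% of symbols), 6 among Stmn2 cells (36.3%) and 1 among Col1a1 cells (12.9%). The gene in Col1a1 cells was Cdkn1c, at 1.00 (0.90 to 1.10), which sits on the threshold. Unsupplemented cells passed it against 4 dpi in 2 genes among Mki67 cells (19.4%), Cdkn1b higher and Cdk6 lower, 4 among Stmn2 cells (37.5%), Cdkn1b higher and Cdk4, Cdk6 and Cdkn1c lower, and 4 among Col1a1 cells (19.3%), Cdkn1b higher and Ccnd2, Cdk6 and Cdkn1c lower. In Mki67 cells with supplements the higher genes were Cdkn1c and Cdkn2c and the lower ones Ccnd1, Ccnd2 and Cdkn2b. In Stmn2 cells with supplements they were Ccnd1, Cdkn1b and Cdkn2b higher and Cdk4, Cdk6 and Cdkn1c lower, with Cdkn1b and Cdkn2b resting on 1 and 5 UMIs at 4 dpi. The UMIs of the 5 cyclin and kinase genes over those of the 5 inhibitors gave 0.917 (0.867 to 0.971) in Mki67 cells, 1.56 (1.53 to 1.59) in Stmn2 cells and 0.653 (0.621 to 0.686) in Col1a1 cells with supplements. Without supplements this ratio of UMIs was 1.10, 1.11 and 1.05, nearly level across the classes, and at 4 dpi it was 1.70, 0.793 and 1.24. The 0.793 has an interval of 0.592 to 1.06, from 88 and 111 UMIs, and 64 of the 111 are Cdkn1c. All Cdkn2a UMIs count as inhibitor here, although they stand for p16Ink4a and p19Arf together. The order of the classes thus differed between libraries, with Stmn2 cells highest with supplements and Mki67 cells highest at 4 dpi.

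The other genes of the G1/S pathway, a list of 47 that were all found, were often higher in Mki67 cells, except against the 31 Stmn2 cells at 4 dpi. In Mki67 over Stmn2 cells with supplements, 19 of 41 tested were higher and 1 was lower, and without supplements 16 of 42 were higher and 3 lower, where 11.4% and 11.1% of all tested symbols were higher. At 4 dpi 3 of 31 were higher and 2 lower, near or below the 11% and 15.4% of all symbols. In Mki67 over Col1a1 cells 15 of 39 were higher with supplements, 14 of 43 without supplements and 16 of 41 at 4 dpi, and 0 were lower in any of these, where 10.5%, 6.62% and 8.21% of all tested symbols were higher. Their median log2 ratio there was 0.72, 0.28 and 0.73, against 0.13, 0.06 and 0.10 over all symbols. In Stmn2 over Col1a1 cells 5 of 34 were higher and 2 lower with supplements, 5 of 36 and 4 without supplements, and 5 of 27 and 2 at 4 dpi, where 17.8%, 19.1% and 20.4% of all symbols were higher and 11.9%, 10% and 9.88% lower. Ccna2, the cyclin of S phase, stood at 161 CPM in Mki67 cells and 3.03 CPM in Stmn2 cells with supplements, a log2 ratio of 5.73 (5.33 to 6.17). Without supplements these were 182 and 0.701 CPM. E2f7 and E2f8, repressive E2F factors, were the other leading genes, at 14.4 against 0.325 CPM and 16.1 against 0.271 CPM in supplemented cells. Mycn, a Myc factor of progenitors, was lower in Mki67 cells there, by a log2 ratio of -1.43. Between the 14 dpi libraries over all cells 0 of 37 passed 2-fold, where 9.97% of symbols did. Against 4 dpi over all cells, 4 of 38 were higher and 11 lower with supplements, where 15.4% of symbols were higher and 10.1% lower. Without supplements 2 of 39 were higher and 5 lower, where 15.7% of symbols were higher and 9.64% lower. The higher counts thus lay near or below the background. The count of lower genes lay above it with supplements and near it without. Cdkn2d, the last INK4 gene, was among the higher ones, at 109 CPM in supplemented cells, 116 CPM in unsupplemented cells and 40.2 CPM at 4 dpi. Ccna2 and E2f1, an activating E2F factor, were among the lower ones, at 18.2, 22.4 and 75.6 CPM and at 16.9, 12.8 and 49.4 CPM in that order. In Stmn2 cells with supplements over none 3 of 33 passed 2-fold, where 11.6% of symbols did. There E2f1 was higher by 1.38 (0.89 to 1.89) and Myc, a target of mitogen signals, by 1.14 (0.91 to 1.39), with Ccne1, an E-type cyclin, lower by a log2 ratio of -1.02 (-1.41 to -0.63). Cdkn1a, the gene of p21 and a p53 target, was lower in Col1a1 cells at 14 dpi, at 161 CPM in supplemented cells and 167 CPM without, against 616 CPM at 4 dpi.

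Across the 9 sums of library and class, the genes whose levels ran most nearly parallel to these were found by Pearson correlation of log2(CPM + 10), as a description over sums that share libraries and depth. Among 3846 eligible symbols, the closest to Cdk4 was Rbm3 (r = 0.983), to Cdkn1b Ppp1cb (0.983), to Ccnd3 Frmd6 (0.979) and to Cdk6 Itgb1bp1 (0.973). The closest to Ccnd1 and Ccnd2 were looser, Eprs at 0.854 and Sptbn1 at 0.895. For the inhibitors they were Anxa6 for Cdkn1c (0.897), Esd for Cdkn2a (0.918), Timp2 for Cdkn2b (0.910) and Celf1 for Cdkn2c (0.942). The best of 3846 symbols over only 9 sums can be high by selection alone. One of the sums is the 31 Stmn2 cells at 4 dpi, with 1 UMI of Cdkn1b and 3 of Ccnd3.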

How the data were processed

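Libraries were prepared with 10x Genomics 3′ v3.1 chemistry, per the labels' protocols. The deposited matrices hold UMI counts per gene and barcode, as Cell Ranger 6.1.1 wrote them per the file headers, on GRCm39, per the submitters' processing notes. Introns and cell calling are not given in the sources used here. The deposited totals were 37112015 UMIs in the supplemented, 46150432 in the unsupplemented and 12290301 in the 4 dpi library. The library pairs shared 3, 5 and 4 barcodes.

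Of 2467, 3893 and 4602 barcodes, those with at least 500 genes and at most 20% mitochondrial UMIs were kept. Features of equal symbol were summed. Scrublet (scanpy 1.11.5) called 3, 1 and 3 doublets. No source used here says whether doublets had been removed before deposit. So few calls were of no use, and all cells were kept. UMIs were summed per library and class and given as CPM computed from the deposited counts. Ratios have Clopper-Pearson intervals (scipy 1.17.1). A count of 0 was set to 3, and where this points the wrong way no ratio is given. Intervals and limits cover counting error only. The ratios and their intervals were tried on simulated counts, drawn independently from a summed profile. Spread between cells was not simulated, so that trial does not cover it. With 1 library per group no p-value is given.

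Genes and lists were chosen with earlier results of these data known. All 10 genes are described, and those past 2-fold are named in each comparison. Of 47 other G1/S genes the 3 highest and 3 lowest past 2-fold could be named, and up to 3 most parallel symbols per gene, among those at 50 CPM in at least 3 sums. The alternatives changed cell filters, scaling, depth and class rules. Sequence windows came from RefSeq on GRCm38.p6 and were not placed on GRCm39.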

Additional observations from a re-analysis of the deposited data

Results flagged for a closer look

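Cdkn1c and Ccnd1 moved past 2-fold in opposite directions in cells of different classes or libraries under the same comparison, and none of these differences was tested. With supplements at 14 dpi over 4 dpi, Ccnd1 gave a log2 ratio of 1.16 in Stmn2 cells and -1.02 in Mki67 cells. In the same comparison Cdkn1c gave 1.26 in Mki67 cells and -3.53 in Stmn2 cells. Within libraries, Cdkn1c in Mki67 over Stmn2 cells was 2.14 at 14 dpi with supplements and -2.64 at 4 dpi. In each of these pairs 1 value, 1.16, -3.53 and -2.64 in that order, uses the 31 Stmn2 cells of the 4 dpi library, in which Ccnd1 rests on 25 UMIs and Cdkn1c on 64. Each of these 3 values stayed past 2-fold in 10 of 11 alternative settings. The Mki67 values of -1.02 for Ccnd1 and 1.26 for Cdkn1c stayed past it in 9 and 8 of 11. At their smallest they were -0.83 and 0.62. The 2.14 stayed past it in all 11.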

How the results depend on the processing

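No paired analysis was possible because each group is 1 library. No replicate could be left out for the same reason. Of 62 values past 2-fold among 210, 33 stayed past it in all settings run and 60 kept their sign. Values past 2-fold numbered 6 of 30 between whole libraries, 31 of 90 between classes and 25 of 90 between libraries within a class. Between classes the number was 20 when a class needed 2 of its markers. Within classes it was 17 of 90 when a class gene needed 2 UMIs. That rule left 94 of 104 supplemented, 106 of 127 unsupplemented and 289 of 577 4 dpi Mki67 cells. It thus weighed unequally on libraries of different depth, and the classes compared with 4 dpi are set unlike in this respect. Within classes the number was 15 of 70 without the 4 dpi Stmn2 cells, a setting chosen after seeing the data. Sign was lost in that class only. Cdkn1b in Stmn2 over Col1a1 cells at 4 dpi was 0.037, against -1.12, with cells thinned to 1000 UMIs. Cdkn1c in Mki67 over Stmn2 cells at 4 dpi was 0.27, against -2.64, when a class gene needed 2 UMIs, which left 12 Stmn2 cells. The cause was not tested. At 4 dpi a count of 1 UMI, as for Cdkn1b in Stmn2 cells, supports no direction.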
